A study of Mus musculus with 6 samples.

Results

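The genes of glycolysis and of the hypoxia response were followed in eosinophils sorted from the fat of wild type (WT) and Klf3-/- mice. The set holds 32 genes named by symbol: 18 glycolytic enzymes, 5 lactate, pyruvate or glucose transporters and pyruvate dehydrogenase kinases, and 9 regulators or targets of the hypoxia response. Measured values were available for 28 of them, out of 17097 genes with a probe set carrying their symbol alone. Where a gene had several such probe sets, the one with the highest mean over all 6 arrays stood for it. Gpi1, Eno1 and P4ha1 had no such probe set, and Pgam1 was covered only by a probe set shared with a related sequence, so these 4 genes have no value here.

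Each array held RNA from 1 mouse, with 3 WT and 3 Klf3-/- mice of the FVB/NJ strain. All 6 were 12 weeks old, kept at 22 °C on standard chow and given no treatment. Klf3, which encodes a transcriptional repressor of the Krüppel-like family, is disrupted in every tissue of the Klf3-/- mice, so the cells around the eosinophils also lacked it. The mice were males bred from heterozygous parents. The cells were taken from the stromal vascular fraction (SVF) of subcutaneous fat by a gate on CD45, CD11b, F4/80, Siglec-F and high side scatter.

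Glycolysis splits glucose into pyruvate in the cytosol, and its hexokinase and phosphofructokinase steps are the main points of control. Lactate dehydrogenase turns the pyruvate to lactate, while pyruvate dehydrogenase kinases close the route of pyruvate into mitochondria. When oxygen is low, hydroxylation of the HIF1A protein by the EGLN enzymes slows, the protein accumulates, and it binds with ARNT to the short motif of hypoxia response elements to raise many of these same genes. The oxygen signal acts mainly on the HIF1A protein, which arrays do not measure.

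Values are given as log2 intensity after quantile normalisation between arrays, which gives each array the same distribution. The deposited values were on no common scale, with array medians that differed by up to 1.94-fold. Levels of different probe sets are not directly comparable, so genotypes are compared within a probe set. Statements on background, brightness and marker levels do set probe sets side by side and are only a rough guide. A background level of 5.10 was set from 44 probe sets of olfactory receptors. All 6 probe sets of Klf3 separated the genotypes without overlap, 1 lower and 5 higher in Klf3-/-, and their places relative to the disrupted exons were not analysed here. Of 10 eosinophil markers listed, 7 were measured, and only Prg3, at a mean of 5.20, exceeded background. Siglecf, Ccr3, Epx, Prg2, Il5ra and Alox15 did not. All 10 macrophage markers exceeded background, with array means of 9.34 to 10.17 in WT and 9.78 to 11.14 in Klf3-/-. Most eosinophil transcripts measured were thus not seen above background, although the sort gated on Siglec-F protein. Whether the cells or the probe sets account for this was not tested. The means of 10 stromal fibroblast and preadipocyte markers did not overlap, at 8.31 to 9.05 in WT and 9.19 to 10.30 in Klf3-/-. Taken singly, 9 were higher in Klf3-/- and Pdgfrb lower, and 3 did not overlap, against 4.84% of all genes. The means of 8 dendritic cell and MHC class II markers did not overlap either, at 9.97 to 10.59 in WT and 9.50 to 9.73 in Klf3-/-. Of these 8, 7 were lower in Klf3-/- and Cd209a higher, and 3 did not overlap, against 6.55% of all genes. Means of endothelial, neutrophil and immediate-early genes overlapped. The part of these markers in the results was not tested. In sorted bulk samples, fewer cells of a type and less RNA per cell cannot be told apart.

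The HIF motif was common in the members' promoters. HIF proteins bind ACGTG and GCGTG, and KLF proteins bind CACCC boxes such as CCACACCC. These letters were searched on both strands in RefSeq windows (GRCm38.p6) from 250 bases before to 50 bases after each start, where all 28 measured members had at least 1 window and 40 in all. ACGTG or GCGTG stood in a window of 27 members (96.4%), Tpi1 being the exception, against 46.7% of 27025 genes. By window the shares were 82.5% of 40 and 43.8% of 32851. CACCC was found in 67.5% of the members' windows and in 57.5% of all windows, and CCACACCC in 10% and 3.56%. Such a match describes the letters and shows no binding. The set was chosen for glycolysis and the hypoxia response, many of whose genes HIF raises, so a high share may follow from that choice. Base composition of the promoters was not matched. The 250 bases before the start are printed for Ldha, which had the most HIF motif matches of the members, and for Hk2 and Ankrd37, the glycolytic and the hypoxia gene that were lower in Klf3-/- in every pair of mice described below at the smallest p. Capitals mark these 5-letter motifs on either strand, so that reverse complements are in capitals too, and a palindromic match counts once on each strand.
Ldha, chr7:46845554-46845803, plus strand: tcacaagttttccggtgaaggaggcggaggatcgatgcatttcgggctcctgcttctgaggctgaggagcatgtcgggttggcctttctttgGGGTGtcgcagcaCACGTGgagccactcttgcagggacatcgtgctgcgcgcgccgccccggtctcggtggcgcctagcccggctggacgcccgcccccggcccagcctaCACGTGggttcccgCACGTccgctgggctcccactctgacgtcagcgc
Hk2, chr6:82774455-82774704, minus strand: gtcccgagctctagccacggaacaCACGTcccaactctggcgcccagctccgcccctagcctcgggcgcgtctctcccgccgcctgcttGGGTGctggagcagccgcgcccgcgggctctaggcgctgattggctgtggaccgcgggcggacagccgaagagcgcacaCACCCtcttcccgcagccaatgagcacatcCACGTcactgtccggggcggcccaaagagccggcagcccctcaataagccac
Ankrd37, chr8:45999851-46000100, minus strand: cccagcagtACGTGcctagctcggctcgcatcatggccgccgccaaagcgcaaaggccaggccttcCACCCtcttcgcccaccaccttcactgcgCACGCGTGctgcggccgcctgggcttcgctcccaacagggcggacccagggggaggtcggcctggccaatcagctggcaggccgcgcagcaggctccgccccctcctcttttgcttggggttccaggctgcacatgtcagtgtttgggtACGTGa
The Ldha stretch held 5 of the 7 HIF motif matches of its whole window and 1 CACCC match, that of Hk2 held 2 of each, and that of Ankrd37 held 4 and 1.

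No member passed the test between genotypes, and the set as a whole was balanced: 14 members were higher and 14 lower in Klf3-/-. Adjusted p-values from limma (Benjamini-Hochberg over 45037 probe sets) ran from 0.868 to 1.00 for the members, and 0% of all probe sets passed 0.05. Across all 28 members the median difference, Klf3-/- minus WT, was -0.01 in log2, beside -0.04 over 17097 genes. At an unadjusted p under 0.05, 1 member was higher, Pfkm, against 3.61% of all genes, and 1 was lower, Hk2, against 2.47%. Groups did not overlap in 2 members with Klf3-/- higher, Pfkm and Vegfa, against 4.84% of genes, and in 0 with Klf3-/- lower, against 6.55%. Those shares lie near the background or below it. On the deposited scale the split became 19 higher and 9 lower with a median of 0.20, while the median of all genes moved to 0.13. The p-values rest on 3 mice a group and set each difference against an error that limma estimates partly from all probe sets. An exact permutation test of a single gene cannot go below 0.1.

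**Figure D1:**
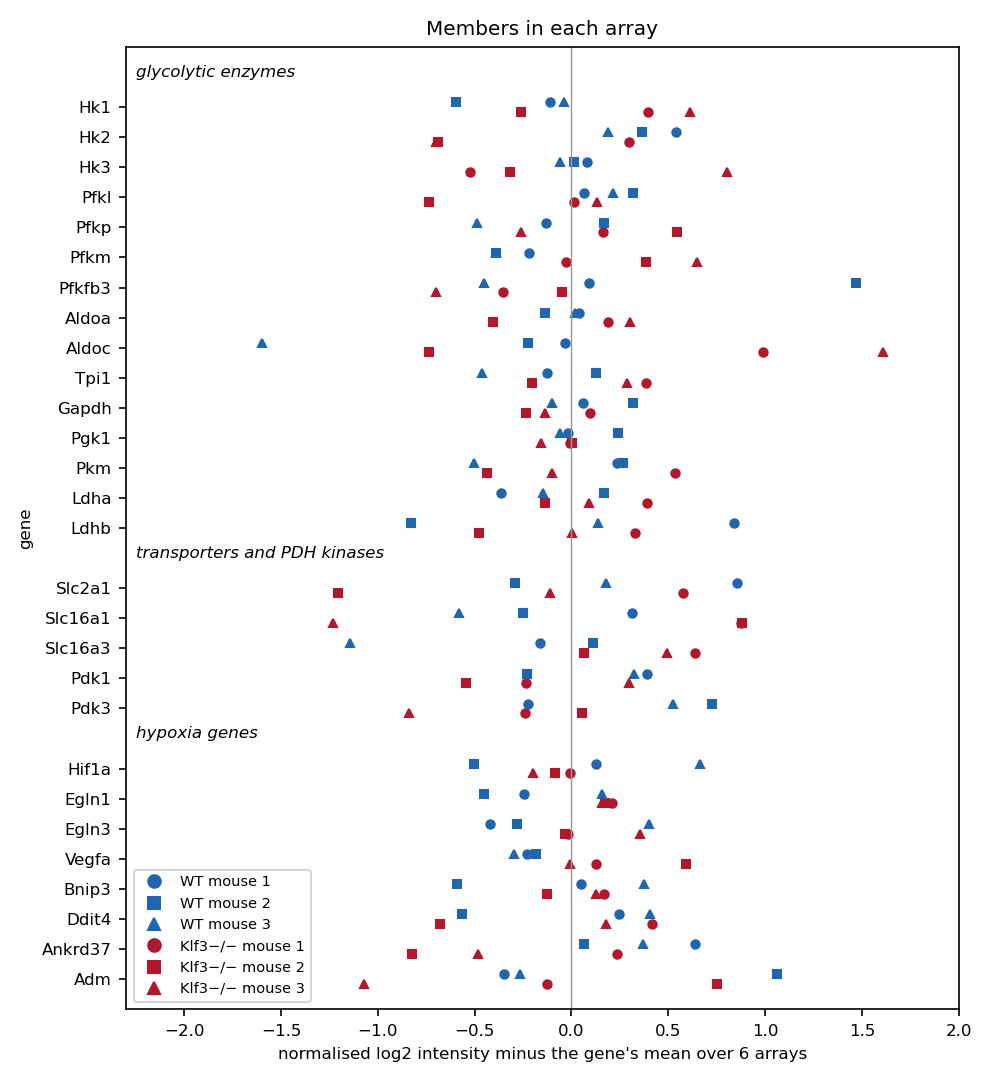
Normalised log2 intensity of each measured member in each mouse, as the difference from that gene's mean over 6 arrays (x axis), with WT in blue, Klf3-/- in red and a symbol for each mouse number. Colours mix in most rows, and in Pfkm and Vegfa the red points all lie right of the blue ones.

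Among the glycolytic enzymes, 15 of 18 were measured, 8 higher and 7 lower in Klf3-/-, with a median difference of 0.00 in log2. Hexokinases, which trap glucose in the cell by phosphorylation, differed in opposite directions on average, with Hk2 lower and Hk1 higher in Klf3-/-. Hk2, the inducible form, read 7.63, 7.45 and 7.27 in the WT mice and 7.39, 6.40 and 6.39 in the Klf3-/- mice. Klf3-/- mice 2 and 3 sat well under all WT mice, and Klf3-/- mouse 1 lay within their range. The difference was -0.73 ± 0.31 (SE, n = 3 a group) in log2, with an adjusted p of 0.901 from limma. Hk1, the more widely expressed form, read 7.43, 6.94 and 7.50 in WT and 7.93, 7.28 and 8.15 in Klf3-/-, a difference of 0.50 ± 0.29. Its highest values were both in Klf3-/- mice, while the lowest Klf3-/- mouse lay among the WT mice. On the deposited scale, where 19 of 28 members were higher in Klf3-/-, the Hk1 groups did not overlap. The difference was 0.31 without WT mouse 2 and 0.75 without Klf3-/- mouse 2, and a further Hk1 probe set gave 0.55. Hk3, a myeloid form, differed by -0.03 in log2, with the highest value in a Klf3-/- mouse.

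Phosphofructokinase, which commits sugar to glycolysis, showed the member with the smallest p. Pfkm, its muscle-type subunit, read 6.17, 5.997 and 5.997 in WT and 6.36, 6.77 and 7.04 in Klf3-/-. All Klf3-/- mice exceeded all WT mice, and the difference was 0.67 ± 0.22 in log2, or 1.59-fold, with an adjusted p of 0.868 from limma. It ranged from 0.52 to 0.85 when each array was left out in turn. Of 6 skeletal muscle markers, 2 exceeded background, Mylpf at a mean of 6.34 and Mb at 5.41. The array means of all 6 were 5.01 to 5.12 in WT and 4.74 to 5.06 in Klf3-/-. Their part in the level of Pfkm was not tested. Pfkp, the platelet type, was 0.30 higher and Pfkl, the liver type, 0.40 ± 0.26 lower in Klf3-/-, though a dimmer Pfkl probe set gave 0.22 in the other direction. Pfkfb3 makes the sugar bisphosphate that activates phosphofructokinase. It read 9.68, 11.06 and 9.14 in WT and 9.23, 9.54 and 8.89 in Klf3-/-. WT mouse 2 stood far above the other mice, and the difference of -0.74 ± 0.48 became -0.19 without it and -1.14 without WT mouse 3.

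The enzymes below phosphofructokinase differed by at most 0.31 in log2 between genotypes, apart from Aldoc. Gapdh, which carries out the first oxidation of the pathway, read 12.33, 12.59 and 12.17 in WT and 12.36, 12.04 and 12.14 in Klf3-/-, with a difference of -0.18 ± 0.20 in log2. Pgk1, the first enzyme to return ATP, read 10.57, 10.83 and 10.53 in WT and 10.58, 10.59 and 10.43 in Klf3-/-. Its difference of -0.11 had a 95% interval of -0.53 to 0.31. Ldha, the lactate dehydrogenase subunit that HIF raises, read 10.05, 10.59 and 10.27 in WT and 10.81, 10.28 and 10.51 in Klf3-/-, a difference of 0.23 with a 95% interval of -0.31 to 0.77. Groups overlapped in each of these 3 genes, and intervals of this width leave room for changes of either sign. The remaining enzymes of this stretch were Aldoa, the main aldolase, at 0.05, Tpi1, triose phosphate isomerase, at 0.31, Pkm, pyruvate kinase, at 0.00, and Ldhb, the other lactate dehydrogenase subunit, at -0.10. Aldoc, an aldolase whose probe set read near background, had the greatest difference of the members, 1.24 ± 0.66, with values of 5.49, 5.30 and 3.93 in WT and 6.52, 4.79 and 7.14 in Klf3-/-. Its groups overlapped, since Klf3-/- mouse 2 lay under WT mice 1 and 2. The difference was 0.75 without Klf3-/- mouse 3, 0.77 without WT mouse 3 and 1.89 without Klf3-/- mouse 2, and a further Aldoc probe set, below background, gave 0.65.

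**Figure D2:**
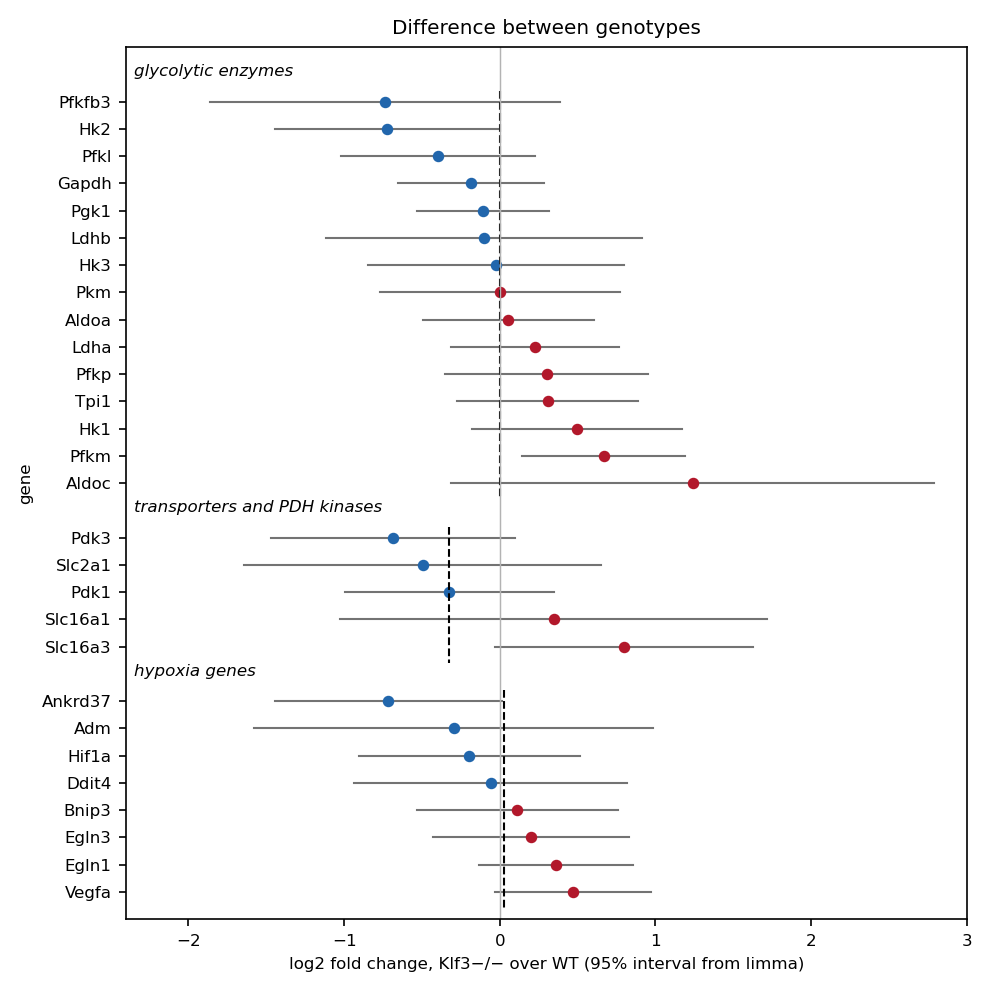
Log2 fold change of each measured member, Klf3-/- over WT (x axis), with its 95% interval from limma over 3 mice a group; red points are above 0, blue points below 0, and dashed lines are the medians of the 3 groups of members. Pfkm and Hk2 are the members whose interval does not reach 0.

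The 5 transporters and pyruvate dehydrogenase kinases had a median difference of -0.32 in log2, with 2 higher and 3 lower in Klf3-/-. This median was -0.02 without Klf3-/- mouse 2, -0.19 without WT mouse 1, -0.49 without WT mouse 2, -0.03 when all probe sets of a gene were averaged and -0.09 on the deposited scale. Slc2a1 encodes GLUT1, the basal glucose transporter. It read 9.45, 8.30 and 8.77 in WT and 9.17, 7.39 and 8.48 in Klf3-/-, a difference of -0.49 ± 0.49. Mouse 2 was the lowest of each genotype, and without Klf3-/- mouse 2 the difference was -0.02, without WT mouse 1 -0.19, without WT mouse 2 -0.76 and without Klf3-/- mouse 1 -0.91. Slc16a3, the lactate exporter MCT4, read 5.47, 5.74 and 4.48 in WT and 6.27, 5.70 and 6.12 in Klf3-/-, a difference of 0.80 ± 0.35 with an adjusted p of 0.910 from limma. Its Klf3-/- mice were alike and its WT mice spread on both sides of background, and the difference was 0.43 without WT mouse 3. Slc16a1, the related transporter MCT1, differed by 0.35 ± 0.58. Both kinases of the set, which switch off pyruvate dehydrogenase, were lower in Klf3-/-, Pdk3 by -0.68 ± 0.33 and Pdk1 by -0.32 ± 0.29. A dimmer Pdk1 probe set gave 0.38 in the other direction. Of the kinases outside the set, Pdk2 was higher by 0.21 and Pdk4, below background, by 0.41. Pdk3 differed by -0.44 without Klf3-/- mouse 3, and Pdk1 by -0.13 without Klf3-/- mouse 2.

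Of the 9 hypoxia genes, 8 were measured, 4 higher and 4 lower in Klf3-/-, with a median difference of 0.03 in log2. Hif1a, the oxygen-regulated subunit itself, read 9.63, 8.997 and 10.16 in WT and 9.49, 9.41 and 9.30 in Klf3-/-. The Klf3-/- mice lay between the WT extremes, and the difference was -0.19 ± 0.30. A dimmer Hif1a probe set behaved otherwise, with 6.38, 6.02 and 5.80 in WT and 4.95, 5.22 and 4.99 in Klf3-/-. Every Klf3-/- mouse was under every WT mouse there, which held for 2934 of all 45037 probe sets. The difference was -1.01 ± 0.21 in log2 with an adjusted p of 0.663 from limma. However, 2 Klf3-/- mice were under background, and the groups overlapped on the deposited scale. Which transcript form this probe set reads was not analysed here. Egln1, the main oxygen-sensing hydroxylase, differed by 0.36 ± 0.21. A dimmer Egln1 probe set gave 0.46, with all Klf3-/- mice above all WT mice, as in 2020 of all 45037 probe sets. On the deposited scale the groups of that dimmer Egln1 probe set overlapped. Egln3, a hydroxylase that HIF induces, was the only member below background, at a mean of 4.38.

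Vegfa and Ankrd37, both induced by HIF, differed in opposite directions on average, with Vegfa higher and Ankrd37 lower in Klf3-/-. Vegfa, the growth factor of blood vessels, read 7.69, 7.73 and 7.62 in WT and 8.05, 8.51 and 7.91 in Klf3-/-. The groups did not overlap, with a difference of 0.47 ± 0.21 in log2, or 1.39-fold, and an adjusted p of 0.910 from limma. They did overlap on the deposited scale and in a further Vegfa probe set, which differed by 0.25. Without Klf3-/- mouse 2 the difference was 0.29. Ankrd37, an ankyrin repeat gene, read 7.32, 6.74 and 7.05 in WT and 6.91, 5.85 and 6.19 in Klf3-/-. Only Klf3-/- mouse 1 reached the WT range, and the difference was -0.72 ± 0.31 with an adjusted p of 0.901, and it was -0.48 without Klf3-/- mouse 2. Bnip3, a mitophagy receptor, differed by 0.11, Ddit4, an inhibitor of mTORC1 signalling, by -0.06, and Adm, a vasodilator peptide, by -0.30. Adm was high in mouse 2 of each genotype, with 8.51 in WT and 8.20 in Klf3-/- against 6.38 to 7.33 in the other 4 mice.

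**Figure D3:**
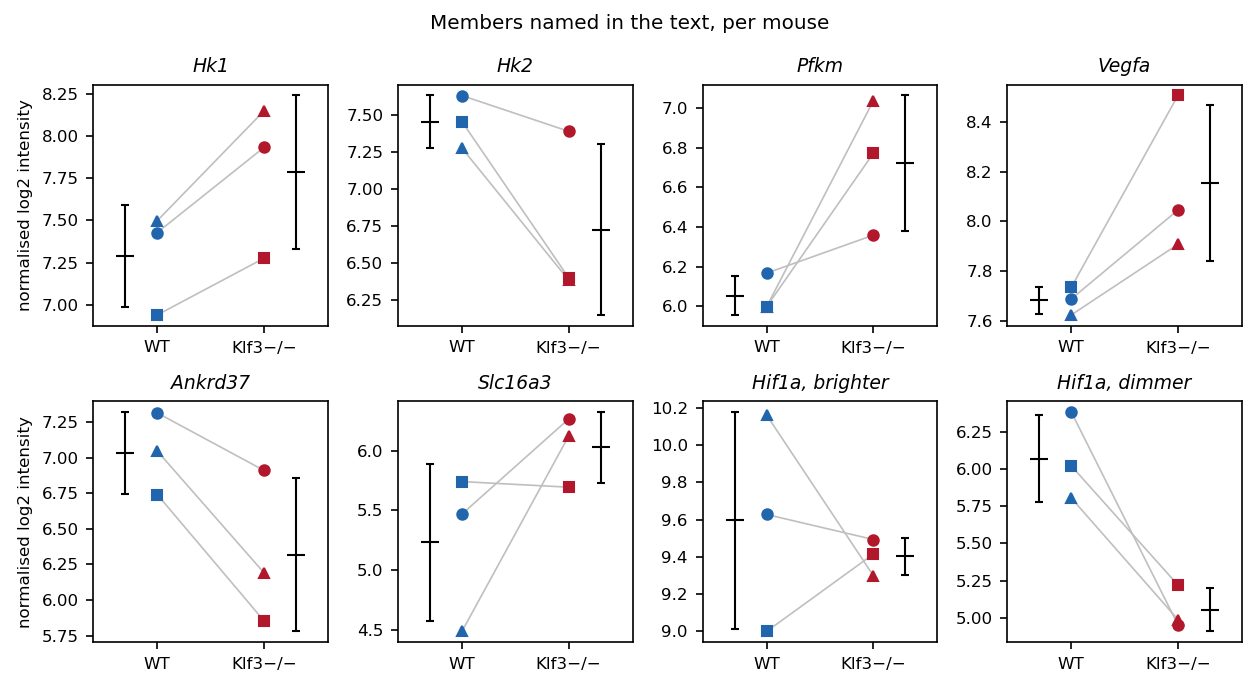
Normalised log2 intensity (y axis, a separate range in each panel) of 7 genes in each mouse, with WT in blue, Klf3-/- in red, circles, squares and triangles for mouse 1, 2 and 3, grey lines joining mice of the same number, and black bars for the mean ± SD of 3 mice. Pfkm, Vegfa and the dimmer Hif1a probe set separate the genotypes, while Hk1, Hk2 and Ankrd37 move one way along every grey line.

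Among 13 members with at least 2 probe sets above background, all probe sets of a gene had the same sign in 11. They were higher in Klf3-/- for Aldoa, Egln1, Hk1, Pfkp, Tpi1 and Vegfa, and lower for Hif1a, Ldhb, Pfkfb3, Pgk1 and Slc2a1. The 2 exceptions were Pfkl and Pdk1. Probe sets of a gene share the RNA of the same mice, so this describes agreement between probes.

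Differences within pairs of mice had mixed signs in 17 of 28 members. The mice are labelled as litter-matched and numbered 1 to 3 in each genotype, and numbers were treated as pairs. The sample titles do not state that equal numbers share a litter or a batch, and the choice drew on these same values. Within pairs, 4 members were higher in Klf3-/- in all 3 (Hk1, Pfkp, Pfkm and Vegfa), against 11.8% of genes, and 7 were lower in all 3 (Hk2, Pfkl, Pfkfb3, Slc2a1, Pdk1, Pdk3 and Ankrd37), against 18.8% of genes. For Hk2 the differences were -0.24, -1.05 and -0.89 in pairs 1 to 3, for Ankrd37 -0.40, -0.89 and -0.86, and for Hk1 0.50, 0.34 and 0.65. With the mouse number as a block, 2 members were higher at an unadjusted p under 0.05, Hk1 and Pfkm, against 4.45% of genes, and 2 were lower, Hk2 and Ankrd37, against 3.5%. None passed adjustment there, the smallest adjusted p of a member from limma being 0.661, for Ankrd37. For 28 members, the counts by pair and by block lie near the shares of all genes, and no set test was run.

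The same mouse number was lowest, and the same number highest, in both genotypes for 9 of 28 members (32.1%), against 21.7% of genes. Mouse 2 was lowest for Hk1, Ldhb, Slc2a1 and Ankrd37. For Pfkp, Pfkfb3, Pgk1 and Vegfa, mouse 2 was highest and mouse 3 lowest. Hk2 was highest in mouse 1 and lowest in mouse 3. Ldhb, for example, read 8.97, 7.30 and 8.27 in WT and 8.46, 7.65 and 8.13 in Klf3-/-, so that mice within a genotype differed by more than the genotypes did. Endothelial markers, all 6 above background, were also lowest in mouse 2, with means of 8.47, 7.13 and 9.25 in WT and 8.61, 6.11 and 8.91 in Klf3-/-. Their part in the level of these members was not tested.

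**Figure D4:**
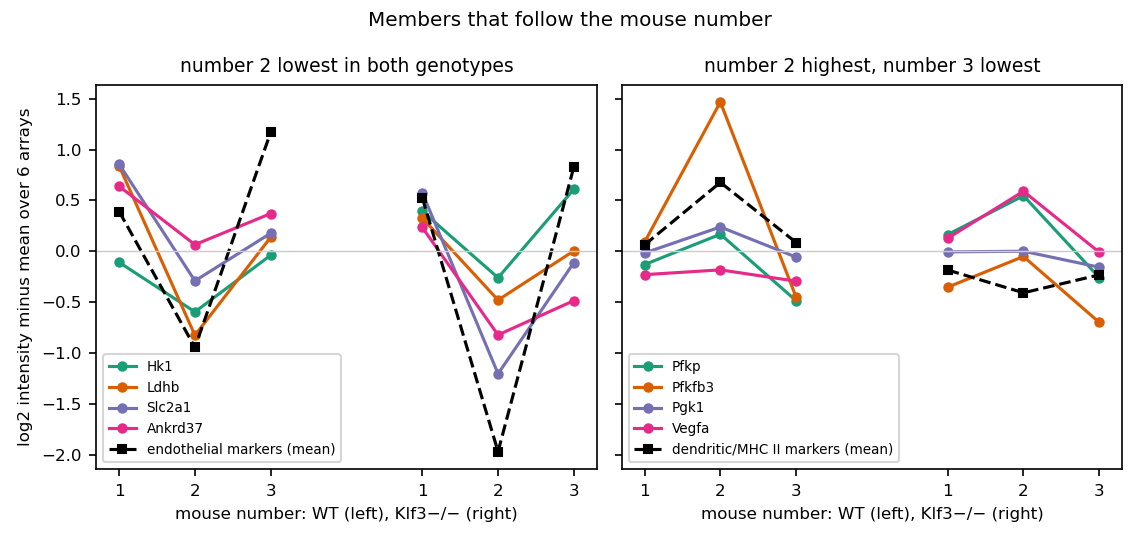
Log2 intensity of 8 members, as the difference from the gene's mean over 6 arrays (y axis), by mouse number within WT (left of each panel) and Klf3-/- (right), with the mean of a marker list as a dashed line; lines only guide the eye, since mice have no order. On the left, mouse 2 is lowest in both genotypes for 4 members and for the endothelial markers, and on the right mouse 2 is highest for 4 members in both genotypes, which holds for the dendritic cell and MHC class II markers in WT alone.

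Other genes of glycolysis and of the HIF pathway were split about evenly between directions. Of 32 other genes of glycolysis and pyruvate use, 28 were measured, with 14 higher and 14 lower in Klf3-/- and a median difference of -0.01 in log2. The smallest p-values belonged to Pgm2, a phosphopentomutase, at 0.80 ± 0.26, Bpgm, which makes bisphosphoglycerate, at 0.52 ± 0.20, and Pdp2, a phosphatase that reactivates pyruvate dehydrogenase, at -0.53 ± 0.21. None of the 28 passed adjustment, the smallest adjusted p from limma being 0.868. In the pentose phosphate pathway 5 of 7 genes were measured, 1 higher and 4 lower, with a median of -0.09. Its genes with the smallest p were Pgd at 0.20, which makes NADPH, Taldo1, transaldolase, at -0.25 and Pgls, lactonase, at -0.12.

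Of 34 further genes of the HIF pathway, 33 were measured, 18 higher and 15 lower in Klf3-/-, with a median of 0.05 and a smallest adjusted p of 0.879 from limma. Its 3 leading genes were all higher in Klf3-/-. Cited2, which competes with HIF1A for its coactivator, differed by 0.58 ± 0.22. Plod2 and Loxl2, which modify collagen, differed by 0.94 ± 0.37 and 1.25 ± 0.54, Loxl2 from a WT mean of 3.91, under background. Of the 10 stromal markers, 9 were also higher in Klf3-/-, at the array means given above, and their part in the collagen genes was not tested.

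**Figure D5:**
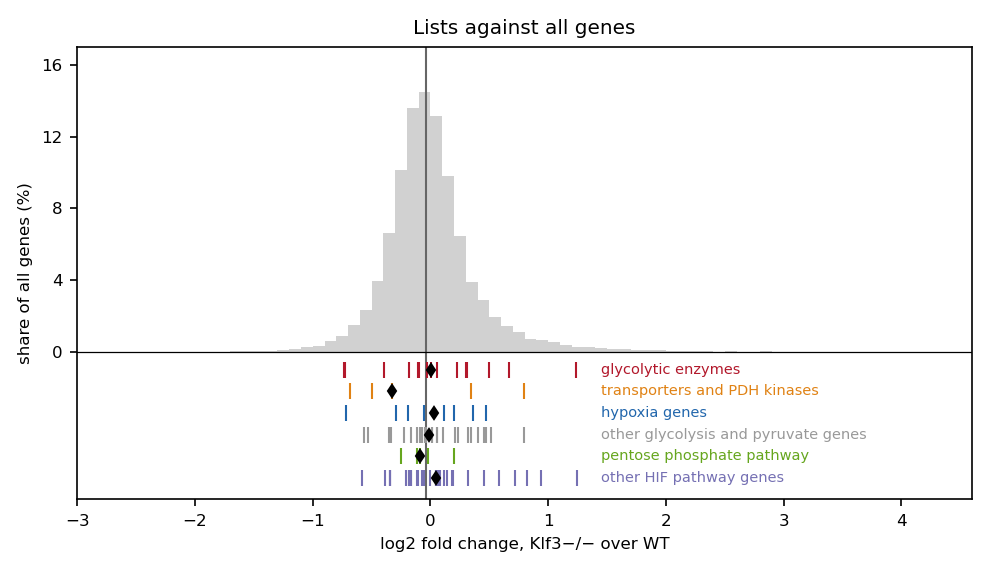
Log2 fold change, Klf3-/- over WT (x axis): grey bars are the share of all 17097 genes in percent (y axis) with their median as a grey line, ticks under the axis are single genes of each list, and diamonds are the medians of the lists. Medians of the lists lie between -0.32 and 0.05, and the ticks fall on both sides of 0 in every list.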

How the data were processed

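RNA of sorted cells was amplified with a 3′ IVT Pico kit and hybridised to Affymetrix GeneChip HT MG-430PM arrays, 1 mouse each. The authors used Partek Genomics Suite v7, and the deposited values are linear intensities, with RMA named in their legend and its steps not given in the sources used here. Intensities were taken to log2 and quantile-normalised between arrays. Genotype was fitted with limma 3.58.1 in R 4.3.3, with Benjamini-Hochberg adjustment over 45037 probe sets and a threshold of 0.05. Platform annotation gave 1 symbol to 28898 probe sets, several to 551 and none to 15588. Background was the 95th percentile of the means of 44 olfactory receptor probe sets (34.2 on the linear scale of the normalised values). Members and lists were chosen with earlier results of these data known. Values of every mouse were printed for members with groups apart or an unadjusted p under 0.05, for Slc2a1, Hk2, Gapdh, Pgk1, Ldha, Hif1a and Vegfa, and for others where single mice set the difference, chosen after their values were seen. Of other pathway lists the 3 genes with the smallest p were named, with Pdk2 and Pdk4 beside the kinases of the set. Deviations of same-numbered mice from their group means correlated at 0.168, 0.225 and 0.207 across probe sets. With litter matching in the labels, the numbers were treated as pairs. As this choice drew on the values themselves, the results by pair and by block are descriptions. The deposited values held no probe sets named as Affymetrix controls, so RNA integrity was not checked from the arrays. The authors state that they checked RNA quality on a Bioanalyzer. Other scales, a filter, other probe set choices, an analysis of variance per probe set, the replicate block and omission of each array were tried. The code was tested on simulated data, and figures were drawn with matplotlib 3.10.9.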

Additional observations from a re-analysis of the deposited data

How the results depend on the processing

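In every alternative run, 0 probe sets passed adjustment in limma. At an unadjusted p under 0.05, 1398 probe sets were higher and 1077 lower. These counts became 1734 and 1478 with the replicate block, which changed no member's direction and brought Hk1 and Ankrd37 under that unadjusted threshold, beside Pfkm and Hk2. Only 62 were lower on the deposited scale and 571 among probe sets above background, where fewer were tested, and 900 were higher by analysis of variance per probe set. Leaving out 1 array gave 1128 to 1610 higher and 883 to 1208 lower. On the deposited scale the median of the glycolytic enzymes was 0.20 in log2, and Hk3 (0.20), Pgk1 (0.071), Ldhb (0.15), Hif1a (0.0059), Ddit4 (0.18) and Pgls (0.10) turned positive. Pkm was -0.0039 after centring on array medians and Egln3 -0.059 as the mean of its probe sets. Pfkl was 0.22 when probe sets with names ending in x_at, s_at or a_at were left out, which kept only its dimmer probe set given above. Leaving out 1 array turned Adm (-0.74 to 0.17), Aldoa (-0.081 to 0.28), Bnip3 (-0.15 to 0.33), Ddit4 (-0.35 to 0.27), Hif1a (-0.49 to 0.088), Hk3 (-0.44 to 0.23), Ldhb (-0.53 to 0.30), Pkm (-0.27 to 0.22), Slc16a1 (-0.0049 to 1.07) and Pgls (-0.29 to 0.053). The median of the glycolytic enzymes ranged from -0.06 to 0.13, that of the transporters and kinases from -0.49 to -0.02 (-0.03 as the mean of probe sets), that of the hypoxia genes from -0.09 to 0.24 and that of the further HIF pathway genes from -0.08 to 0.12. The other 16 members, Hk1, Hk2, Pfkm, Vegfa and Ankrd37 among them, kept their direction in every alternative that gave them a value. The causes were not tested. With 3 arrays a group, their number limits the precision.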
